A study of Mus musculus with 8 samples.

Results

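Slc7a11 encodes xCT, the light chain of the cystine/glutamate exchanger in the plasma membrane. Its values are described here in 8 subcutaneous MC38 tumors of mice treated with an antibody against PD-1, with or without the bacterium Fusobacterium nucleatum. The gene is 1 of 752 in the deposited table, found by its symbol, and it was selected on its measured difference between these same 2 groups: no p-value in the table is above 0.04995 and no log2 fold change is nearer to 0 than 1.0013. The difference between the groups is therefore given as a description, with no test.

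MC38 is a colon adenocarcinoma cell line of C57BL/6 mice. The cells were injected under the skin of germ-free, wild-type mice of that strain, and tumors were taken on day 23. The labels give no age. The 4 tumors of the anti-PD-1 group (numbers 11, 17, 18 and 19) came from mice given the antibody by intraperitoneal injection. The other 4 (numbers 36, 37, 39 and 40) came from mice given the same antibody and, by gavage, F. nucleatum ATCC-25586. Each library has its own tumor number in the labels, which do not state whether each tumor came from a separate mouse. The reads in the genes of the table numbered 97511 to 308139 per tumor, and library totals are unknown. RNA came from whole tumors, so a lower share of cells with the transcript and less transcript per cell cannot be told apart.

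The exchanger, called system xc-, brings cystine into the cell in return for glutamate. It is made of xCT and the heavy chain CD98hc, which Slc3a2 encodes. Inside the cell cystine is reduced to cysteine, which limits the making of glutathione, the cofactor with which Gpx4 removes lipid peroxides, and blocking the exchanger can lead to ferroptosis, an iron-dependent form of cell death. The transcription factors ATF4, which answers amino acid shortage, and NRF2, which answers oxidants, are known to turn Slc7a11 on. Interferon-gamma from CD8 T cells has been described to lower it in tumor cells. In tumors the gene can be expressed by cancer cells and by myeloid cells.

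The gene (ENSMUSG00000027737) lies on the minus strand of chromosome 3 from 49892526 to 50443614 in GENCODE M21 on GRCm38, the assembly that mm10 names. The annotation gives it 2 protein-coding transcripts of 12 exons each. One is 9223 bases long and ends at 50364938, and the other is 2419 bases long and runs to the far end of the gene. The deposited values are per gene and do not separate them. Another 5 annotated genes lie within its span, 2 on the same strand and 3 on the opposite strand, and none of the 5 overlaps an exon of Slc7a11.

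The 250 bases before the RefSeq transcription start are shown because they hold the ATF4 element through which amino acid shortage acts on this gene. They span chr3:50443614-50443863 (GRCm38.p6) and are printed on the gene's strand, with matches to any of the 4 motifs searched in capitals.

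Slc7a11 promoter: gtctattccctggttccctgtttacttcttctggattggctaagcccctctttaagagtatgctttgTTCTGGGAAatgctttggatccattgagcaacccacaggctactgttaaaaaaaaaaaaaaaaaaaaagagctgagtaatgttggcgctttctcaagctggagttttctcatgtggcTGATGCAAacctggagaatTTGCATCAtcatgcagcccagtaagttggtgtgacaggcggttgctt

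Both strands were searched. The core of the ATF4 element, TGATGNAA, occurred 2 times, once on each strand, as TGATGCAA at 66 to 59 bases and as TTGCATCA at 47 to 40 bases before the start, with 11 bases between them. Of 32851 promoter windows of this length in the RefSeq table, 1134 (3.45%) held at least 1 such core and 13 (0.0396%) held 2 or more. The interferon-gamma-activated site TTCNNNGAA, which reads the same on both strands, occurred once, as TTCTGGGAA at 183 to 175 bases before the start, and 7.02% of the windows held it. The core of the antioxidant element, TGACNNNGC, and the interferon-stimulated response element had no match in this window, and 10.2% and 2.98% of all windows held one. No match overlapped another. A match describes letters in this window and does not show that a factor binds there.

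Slc7a11 had its 4 highest values in the 4 anti-PD-1 tumors. Normalized counts, which are reads divided by the authors' size factor, were 1025 in tumor 11, 2203 in tumor 17, 1734 in tumor 18 and 1251 in tumor 19. With F. nucleatum they were 645.0 in tumor 36, 435.8 in tumor 37, 882.9 in tumor 39 and 999.8 in tumor 40. Tumor 17 was the highest and tumor 37 the lowest, 5.06-fold apart, and the groups did not overlap on this scale. With each tumor centred on the median of 253 genes of the table they overlapped: tumors 39 (10.90) and 40 (10.99) were then the highest of the 8, and the log2 difference between the groups was -0.24. That median is taken over genes selected on this contrast and itself differed by -0.84 between the groups.

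The gap between the groups was within counting error. The lowest anti-PD-1 tumor, 11, was 0.04 above the highest F. nucleatum tumor, 40, on the log2 scale. Its 1072 reads gave an exact 95% Poisson interval of 965 to 1088 normalized counts, and the 946 reads of tumor 40 one of 937 to 1066. These intervals overlapped, while those of all 6 other neighbours in the order of the tumors (17, 18, 19, 11, 40, 39, 36, 37) did not. The intervals cover counting error only. They may be too narrow even for that, since reads without molecular identifiers are not independent molecules.

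**Figure D1:**
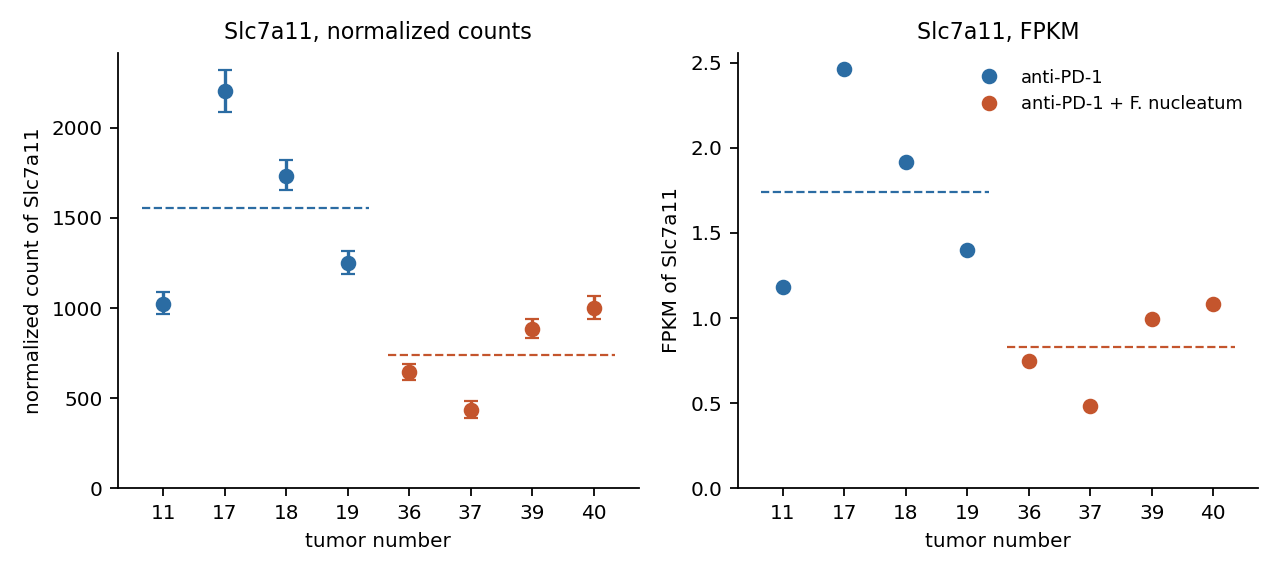
Slc7a11 in each of the 8 tumors (horizontal axis, tumor number), as normalized counts with exact 95% Poisson intervals (left) and as FPKM (right); dashed lines are group means of 4 tumors. The anti-PD-1 tumors lie between 1025 and 2203 normalized counts and the F. nucleatum tumors between 435.8 and 999.8, with tumors 11 and 40 nearly level.

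The mean log2 normalized count of Slc7a11 was 10.54 ± 0.49 (SD, n = 4) in the anti-PD-1 group. In the F. nucleatum group it was 9.47 ± 0.53 (SD, n = 4). The difference was -1.07 ± 0.36 (SE), a ratio of 2.11 between the geometric group levels. The spread within a group was as wide as this difference: the highest and lowest tumors were 1.10 apart on the log2 scale with anti-PD-1 alone and 1.20 apart with F. nucleatum. In FPKM, which divides by transcript length, the level was 1.74 ± 0.571 and 0.828 ± 0.271 (mean ± SD, n = 4 each). A given FPKM of Slc7a11 stood for 4.62 times as many normalized counts as the same FPKM of Cxcl9, since its transcript is longer in the authors' scaling. Its reads were therefore many for a gene at about 1 FPKM.

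The authors' deposited table gave Slc7a11 a p-value of 0.000151 and an FDR of 0.0286. Of its 752 genes, 47 (6.25%) were lower with an FDR under 0.05, and in 93 of 752 (12.4%) every F. nucleatum tumor was below every anti-PD-1 tumor. Slc7a11 was in both sets. These counts come from the same contrast that put the gene in the table, and nothing is read from them.

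Among the 353 lower genes Slc7a11 combined a high count with a small difference. It ranked 15th of 353 by mean normalized count and 329th by the size of its log2 difference, whose median over the 353 was -1.82. Among the 47 that also had an FDR below 0.05, as the authors' deposited table gives it, Slc7a11 ranked 44th by size. The gap between its groups ranked 82nd in width among the 93 lower genes without overlap, where the median gap was 0.28. Its counts were spread over the tumors: tumor 17 held the largest share, 24.0%, against a median largest share of 33.2% over the lower genes.

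**Figure D2:**
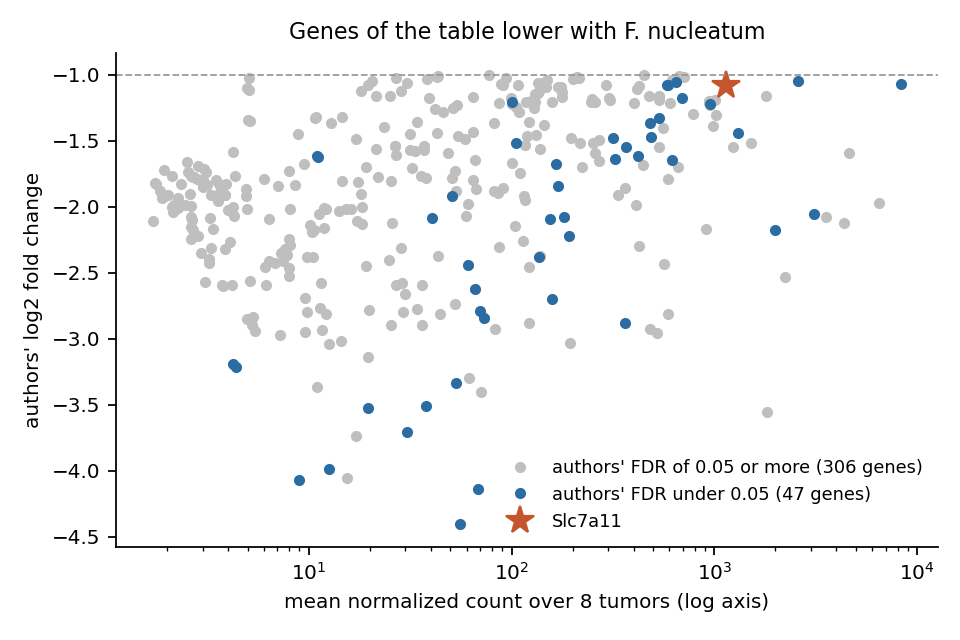
The 353 genes of the deposited table that were lower with F. nucleatum, by mean normalized count over 8 tumors (horizontal, log axis) and the authors' log2 fold change (vertical); the dashed line marks a log2 fold change of -1. Slc7a11 (star) sits at the right, where counts are high, and just below the dashed line, at -1.07.

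The lowest Slc7a11 values were in the F. nucleatum tumors that carried RNA of other tissues. The 25 muscle genes in the table, of 38 listed, summed to 489.5 FPKM in tumor 36 and 26.1 FPKM in tumor 37, and to between 2.75 and 5.63 FPKM in the other 6 tumors. Acta1, the actin of skeletal muscle, had 21775 reads in tumor 36, 673 in tumor 37, 140 in tumor 39, 16 in tumor 40 and 4 to 32 in the anti-PD-1 tumors. Tumor 39 was thus also above the anti-PD-1 tumors in Acta1. Tnnt3, a fast muscle troponin, had 5762 in tumor 36, 280 in tumor 37 and 11 to 78 in the other 6, where tumor 39 had 53. The 25 skin genes in the table, of 34 listed, summed to 438.5 FPKM in tumor 37 and to between 1.59 and 3.35 FPKM in the other 7. Krt14, a keratin of basal keratinocytes, had 9980 reads in tumor 37, 5 in tumor 36 and 0 in the other 6, and Krt16, a keratin of stressed epidermis, had 4729 in tumor 37.

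Without tumors 36 and 37 the log2 difference of Slc7a11 was -0.66, and the difference with all tumors was 1.62 times as large. In tumors 39 and 40 the muscle sums were 5.63 and 3.74 FPKM and the skin sums 1.80 and 2.54 FPKM, against 2.75 to 4.13 and 1.59 to 2.72 FPKM in the anti-PD-1 tumors. The part of the other tissues in the values of Slc7a11 was not tested.

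With F. nucleatum, the sum of red blood cell genes ran opposite to Slc7a11. The 7 in the table, of 17 listed, summed to between 357.7 and 657.7 FPKM with anti-PD-1 alone and between 582.4 and 1457 FPKM with F. nucleatum. The sum was highest in tumor 37, then in 36, 39 and 40, the reverse of the order of Slc7a11 in these 4 tumors. In the anti-PD-1 tumors it was not reversed: tumor 11, the lowest in Slc7a11, also had the lowest sum, and Hbb-bs, Hba-a1 and Hba-a2 had the same order as Slc7a11 in 4 of 6 pairs. Hbb-bs, an adult beta-globin, had 468.5 FPKM in tumor 37 and 199.7 FPKM in tumor 40. Hba-a1, an adult alpha-globin with the near-identical copy Hba-a2, had 383.5 and 152.5 FPKM there. In the F. nucleatum tumors Hba-a1 and Hba-a2 were opposite to Slc7a11 in 6 of 6 pairs and Hbb-bs in 5 of 6. The part of blood in the values of Slc7a11 was not tested.

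**Figure D3:**
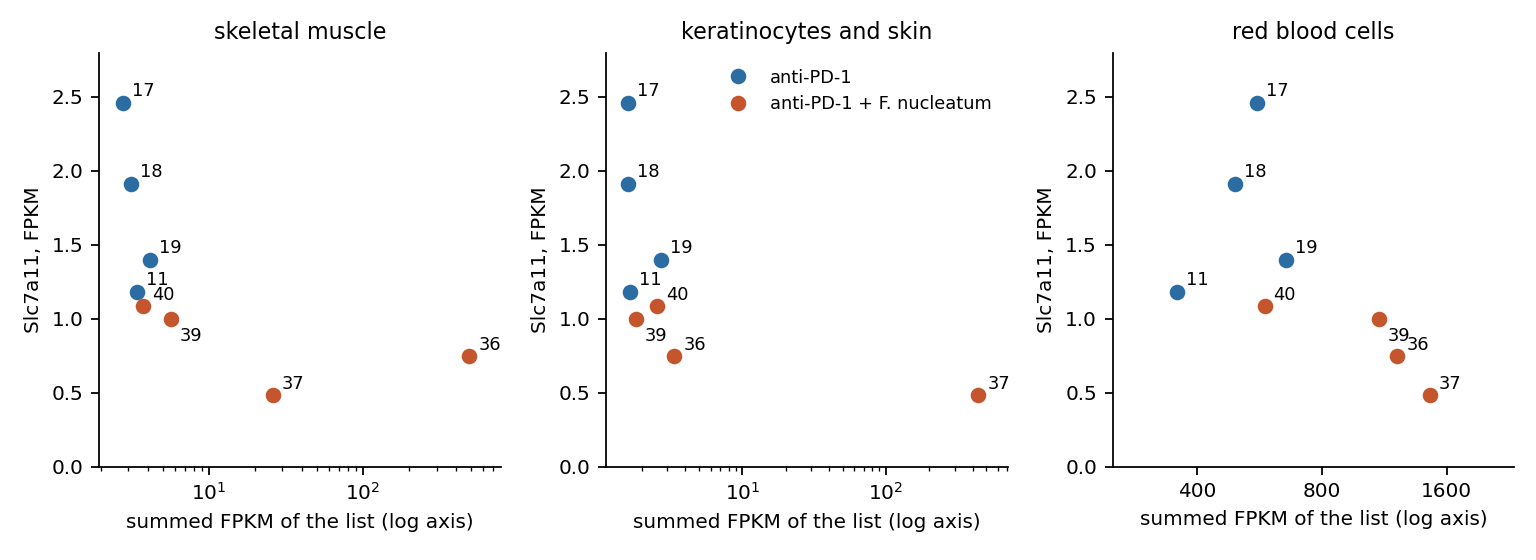
Slc7a11 (vertical, FPKM) against the summed FPKM of the muscle, skin and red blood cell genes of the table (horizontal, log axes); each point is 1 of 8 tumors, labelled by number and colored by group. Tumors 36 and 37, the lowest in Slc7a11, stand apart in muscle or skin RNA, while tumors 39 and 40 lie nearer to the anti-PD-1 tumors, tumor 39 just above them in muscle RNA.

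Among the genes of cystine and cysteine supply, glutathione, NRF2, ATF4, ferroptosis and the SLC7 and SLC3 transporters, few were in the table. The 5 lists hold 181 different genes, of which 2 were in it, Slc7a11 and Cth, and both were lower. By list these were 2 of 49 genes of cystine uptake and glutathione, 2 of 46 ATF4 genes, and Slc7a11 alone among 37 NRF2 genes, 59 ferroptosis genes and 17 SLC7 and SLC3 genes. The heavy chain Slc3a2, the glutathione enzymes Gclc and Gclm, and Gpx4 were outside the table. Values of genes outside it were not analysed here, and their absence sets no bound on their change. Slc7a11, the gene chosen here, is in all 5 lists, so only Cth adds to the count. The share of all measured genes that reached the table is not given here, so 2 of 181 has no background.

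Cth encodes cystathionine gamma-lyase, which makes cysteine from cystathionine, the route of cysteine supply that does not need the exchanger. It is also an ATF4 target. Its normalized counts were 452.3 in tumor 11, 961.1 in tumor 17, 243.9 in tumor 18 and 973.1 in tumor 19. With F. nucleatum they were 150.0 in tumor 36, 45.2 in tumor 37, 400.7 in tumor 39 and 343.5 in tumor 40. The groups overlapped, since tumors 39 and 40 were above tumor 18. Tumors 36 and 37 were the lowest for Cth as for Slc7a11.

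The log2 difference of Cth was -1.69 ± 0.86 (SE, n = 4 each). The authors' deposited table gave it a p-value of 0.0452 and an FDR of 0.99999. In the F. nucleatum tumors 5 of the 6 pairs of tumors had the same order for both genes, and in the anti-PD-1 tumors 3 of 6 did. Of the RefSeq promoters, 1 entry matched Slc7a11 and none was found for Cth.

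Slc7a11 was lower in the group in which the interferon and CD8 T cell genes of the table were lower too. The table held 24 of 35 interferon-gamma genes, each of them lower, and their median log2 difference was -2.0. It held 20 of 35 genes of T and cytotoxic lymphocytes, again each lower, and their median was -2.26. The FDR in the authors' deposited table was under 0.05 for 3 of the 24 and 6 of the 20, and 2 and 12 had no overlap between the groups. These are 12.5% and 30% by FDR and 8.33% and 60% by overlap, against 6.25% and 12.4% over the table. That background counts lower genes only, 47 and 93, but divides by all 752 genes. Since all listed members were lower, the nearer base is 47 and 93 of the 353 lower genes, which are larger shares. The interferon-gamma genes were below both backgrounds in the share without overlap, and not above the lower genes by FDR. Igtp, an interferon-induced GTPase, had 14.1 ± 7.90 FPKM in the anti-PD-1 tumors and 4.99 ± 3.58 FPKM with F. nucleatum (SD, n = 4). Ccl5, a chemokine made by T cells, had a log2 difference of -2.09 ± 0.65 (SE). Gzmb, a granzyme by which cytotoxic cells kill, had 3.39 ± 2.06 and 0.792 ± 0.528 FPKM (SD, n = 4). The median over all 353 lower genes was -1.82. All these genes entered the table through the same contrast, so their common direction between the groups is no separate evidence. The order of the tumors within each group was not used to choose them, and is described next for Cxcl9, Gbp2 and Cd8a.

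Cxcl9, an interferon-gamma-induced chemokine that draws T cells, had log2 normalized counts of 10.05 in tumor 11, 12.46 in tumor 17, 12.18 in tumor 18 and 10.07 in tumor 19. With F. nucleatum it had 10.77 in tumor 36, 6.09 in tumor 37, 7.49 in tumor 39 and 6.19 in tumor 40. Tumor 36 lay among the anti-PD-1 tumors, so the groups overlapped.

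Within the anti-PD-1 group the tumors had the same order for Cxcl9 as for Slc7a11, in 6 of 6 pairs, although tumors 11 and 19 differed by only 0.03 in Cxcl9. In FPKM this pair was reversed, with 5.62 in tumor 11 and 5.55 in tumor 19. The comparison was with 252 other genes of the table, those with a mean normalized count of at least 50. In 47 (18.7%) of them none of the 6 anti-PD-1 pairs was opposite to Slc7a11. Tied pairs counted as not opposite, so the 47 include genes without an order, such as Krt14, with 0 reads in all 4 anti-PD-1 tumors. Among the 159 lower genes of the 252, 21 (13.2%) had no opposite pair. Within the F. nucleatum group 3 of 6 pairs had the same order: tumor 37 was lowest in both genes, but tumor 36, the highest in Cxcl9, was the second lowest in Slc7a11. The order of tumors 37 and 40 in Cxcl9 was not resolved, with 58 and 68 reads. Their exact 95% Poisson intervals, 51.0 to 86.9 and 55.8 to 91.1 normalized counts, overlapped.

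Gbp2, an interferon-induced GTPase, had log2 normalized counts of 11.21, 13.38, 13.74 and 10.96 in tumors 11, 17, 18 and 19. In tumors 36, 37, 39 and 40 it had 11.84, 9.92, 9.55 and 9.49. Tumors 17 and 18 were highest in both Gbp2 and Slc7a11. In the F. nucleatum tumors 5 of 6 pairs were ordered opposite to Slc7a11, which is the upper quartile over the 252 genes, whose median was 4. Over the 159 lower genes among them the upper quartile was 4. In the anti-PD-1 tumors 2 of 6 were, equal to the median of the 252. The order of tumors 39 and 40 in Gbp2, which is among the 5 opposite pairs, was not resolved. Their exact 95% Poisson intervals, 699 to 796 and 665 to 774 normalized counts, overlapped.

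Cd8a, the CD8 alpha chain of cytotoxic T cells, had 182, 124, 86 and 58 reads in tumors 11, 17, 18 and 19, or log2 normalized counts of 7.45, 7.60, 6.47 and 5.55. In tumors 36, 37, 39 and 40 it had 28, 40, 13 and 3 reads, or 4.55, 5.57, 3.52 and 2.06. The groups overlapped by a narrow margin, since tumor 37 lay 0.02 above tumor 19. In the anti-PD-1 tumors 2 of 6 pairs were ordered opposite to Slc7a11.

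With F. nucleatum all 6 pairs were opposite: tumor 37 had the most Cd8a and the least Slc7a11, and tumor 40 the least Cd8a and the most Slc7a11. The Cd8a order was not fully resolved, as its reads were few. Its exact 95% Poisson intervals were 33.1 to 63.1 normalized counts in tumor 37 and 14.9 to 32.5 in tumor 36. They were 5.58 to 17.9 in tumor 39 and 0.654 to 9.27 in tumor 40, so tumor 39 overlapped tumors 36 and 40. Of the 252 genes 13 (5.16%) were opposite in all 6 F. nucleatum pairs, among them Cd8a, BC106179, Hba-a1 and Hba-a2. Of the 159 lower genes among the 252, to which Cd8a belongs, 2 (1.26%) were. These 4 tumors are also in that order for the summed red blood cell genes, as given above. Without tumors 36 and 37 the share of opposite pairs in both groups was 42.9% in place of 66.7% for Cd8a, 42.9% in place of 58.3% for Gbp2 and 14.3% in place of 25% for Cxcl9.

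Over both groups 3 of 12 pairs were opposite for Cxcl9, 7 for Gbp2 and 8 for Cd8a, against a median of 5 and quartiles of 4 and 7 over the 252 genes. Over the 159 lower genes among them, as these 3 genes are, the median was 5 and the quartiles were 4 and 6. With 4 tumors a group no correlation was computed.

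**Figure D4:**
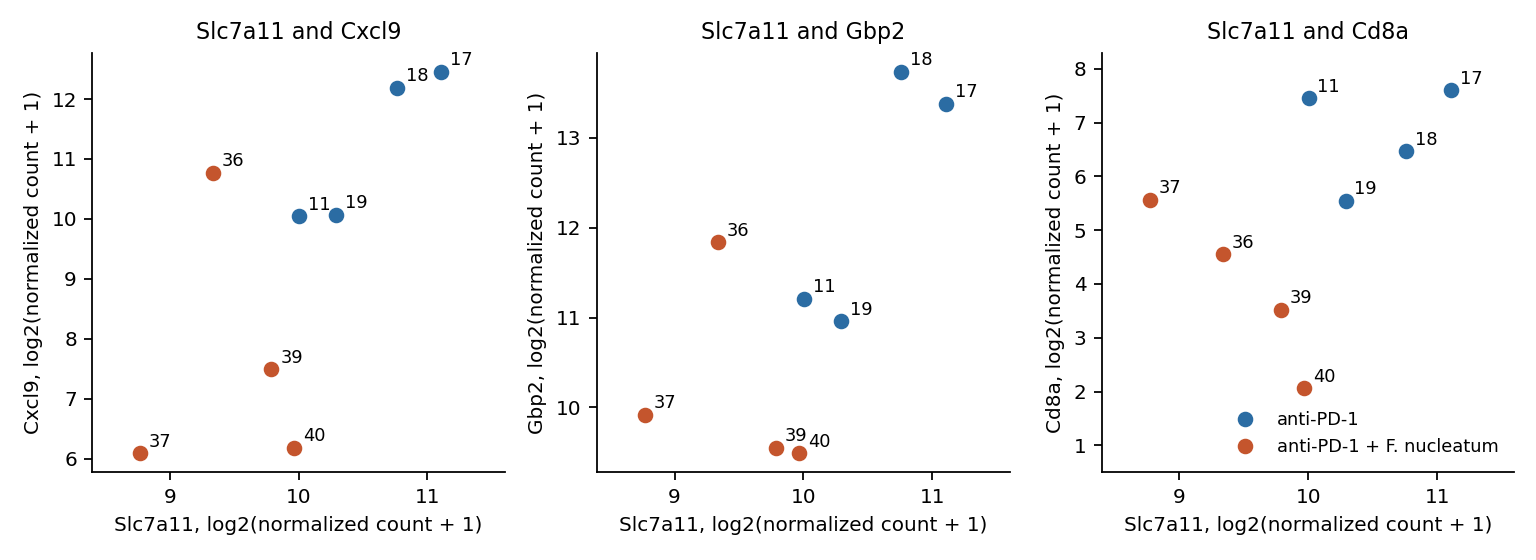
Slc7a11 (horizontal) against Cxcl9, Gbp2 and Cd8a (vertical), all as log2(normalized count + 1); each point is 1 of 8 tumors, labelled by number and colored by group. In the anti-PD-1 tumors Cxcl9 keeps the order of Slc7a11, and in the F. nucleatum tumors Cd8a is highest in tumor 37, where Slc7a11 is lowest, and lowest in tumor 40, where it is highest.

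The gene with the pattern most like Slc7a11 over the 8 tumors was Il7r, among the 252 genes with a mean normalized count of at least 50. Likeness was the root mean square distance between log2 values, each gene centred on its own mean, over the same 252 genes. A gene with a flat profile would lie at 0.70 from Slc7a11, and the median gene lay at 1.20. Il7r, the interleukin-7 receptor of lymphocytes, lay at 0.36. It was followed by Cd274, which encodes PD-L1, at 0.46, Cish, a cytokine-induced inhibitor of cytokine signaling, at 0.47, Cd300lf, a receptor of myeloid cells, at 0.51 and H2-K1, an MHC class I heavy chain, at 0.51.

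Il7r had log2 normalized counts of 7.46, 8.82, 9.0 and 8.33 in tumors 11, 17, 18 and 19 and of 7.72, 6.36, 7.45 and 7.25 in tumors 36, 37, 39 and 40. It shared with Slc7a11 the high tumors 17 and 18 and the low tumor 37, but its groups overlapped. In all 5 genes tumor 36 was above its place in Slc7a11. Its log2 value minus the mean of the gene was -0.67 for Slc7a11, -0.08 for Il7r and 0.10 to 0.38 for the other 4. Of the 5 genes, Cish and H2-K1 had no overlap between groups, as had 93 of the 353 lower genes, or 12.4% of all 752. The 5 were picked for likeness to Slc7a11, which had no overlap itself, so nothing is read from this count.

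The nearest genes to the mirror image of Slc7a11 were BC106179 at 0.47, the adult beta-globin Hbb-bs at 0.48, Gm12013 at 0.49, the adult alpha-globin Hba-a2 at 0.49 and Lims1, an adaptor of focal adhesions, at 0.50. Their log2 differences were 1.01 to 1.17. The direction of the near genes, and of those near the mirror image, is set by the fold change minimum of the table. In BC106179, Hbb-bs, Gm12013 and Hba-a2 tumor 37 was the highest of the 8, and in Lims1 tumor 39 was. The globins have near-identical copies, so their counts are uncertain as single genes. Genes near Slc7a11 by this measure share the 8 libraries and their scaling, and the contrast by which the table was made.

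**Figure D5:**
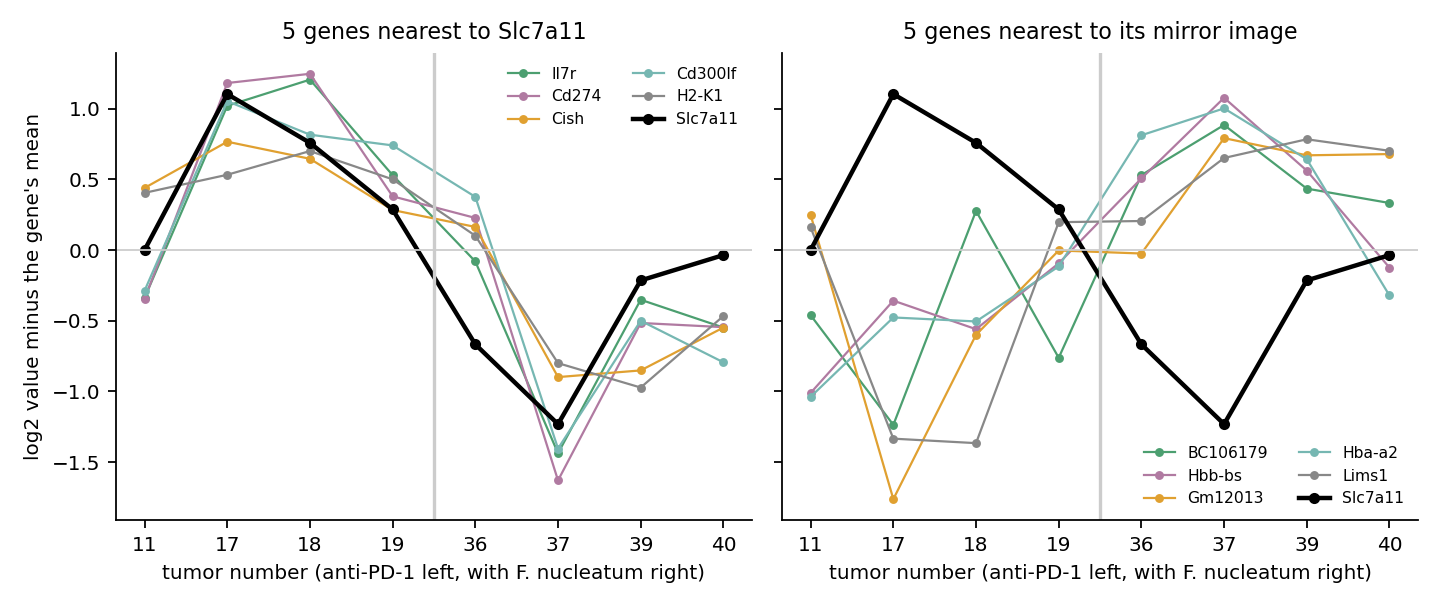
Log2 values minus each gene's mean (vertical) in the 8 tumors (horizontal; anti-PD-1 left of the grey line, with F. nucleatum right) for Slc7a11 (black) and the 5 genes nearest to it (left) or to its mirror image (right). Tumor 37 is the lowest point of Slc7a11, at -1.23, and tumor 36 lies lower in Slc7a11 than in each of the 5 like genes.

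Markers of the cell types that could carry Slc7a11 were mostly outside the table. Of 26 macrophage and myeloid genes listed, Aif1 alone was in it, at 6.38 to 10.7 FPKM with anti-PD-1 alone and 2.33 to 10.6 FPKM with F. nucleatum. Aif1 was among the highest in tumor 36, where Slc7a11 was low. Of 21 neutrophil genes, Lcn2 and Il1r2 were in it and summed to 6.93 to 12.6 FPKM with anti-PD-1 alone and 3.01 to 6.57 FPKM with F. nucleatum. Of 14 epithelial and tumor cell genes, Epcam alone was in it. This adhesion molecule of epithelia, which marks most colon carcinomas, had 160 reads in tumor 37, 3 in tumor 36 and 0 in the other 6, where 3 reads equal 2.37 to 4.66 normalized counts. Tumor 37 was also the tumor with skin RNA, and the source of its Epcam reads was not tested. The other 13 of the 14 genes were not analysed here, so the tumor line could not be checked on them. No gene of 17 for fibroblasts and vessels was in the table. The part of myeloid cells and of the share of tumor cells in the values of Slc7a11 was not tested.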

How the data were processed

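Per the labels' protocols, RNA of 8 whole tumors was extracted with TRIzol, and TruSeq libraries that keep strand were sequenced. STAR 2.5, FastQC, Cuffnorm, DESeq 1.22.1 and the mm10 build are listed, without roles, in the submitters' processing notes. No source used here says whether strand was used in counting.

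Deposited log2 values were taken on a normalized count to which 1 was added. In each tumor all values above 0 were whole multiples of the value of 1 read (100%, tolerance 0.1 read), which gave the reads. Relative size factors were 0.644 to 1.27 and reads in listed genes 97511 to 308139. Library totals are unknown. Deposited FPKM are the authors' values per length and library. The authors' deposited p-value and FDR come from a test that no source used here names. The authors' log2 fold change equals the difference of the group means of the log2 columns.

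Groups followed the treatment label, and replicate numbers pair no tumors. Since Slc7a11 was selected on this contrast, no test was run. The SE combines the SDs of both groups of 4, and intervals are exact 95% Poisson. For order, each of the 6 pairs of tumors within a group was compared, and a tied pair counted as not opposite. Likeness used genes with a mean normalized count of at least 50. Named were Slc7a11, Cxcl9, Gbp2, Cd8a, the pathway genes in the table, the 5 nearest genes in each direction and the 2 members with the highest mean FPKM of 6 lists; Aif1 and Epcam were named after their values were seen. The gene, lists, motifs and settings were chosen with earlier results of these data known. Settings tried were log2(FPKM + 1), log2(FPKM + 0.1), group medians, median centring, quantile normalization, within-group centring, no filter, and tumors left out. The read recovery and the pattern and order measures were tested on simulated data. Scripts ran in Python 3.11.15 with scipy 1.17.1, pandas 2.3.3, numpy 2.4.6 and matplotlib 3.10.9. Promoter sequence is from RefSeq (GRCm38.p6).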

Additional observations from a re-analysis of the deposited data

Results flagged for a closer look

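In groups of 4 tumors, the gap between the most extreme tumor and its neighbour was set against the range of the group. Of 54 groups from 28 genes, 2 had a gap wide enough to stand apart at the 95% level, where chance gives about 1 in 20. Another 2 groups, with 0 reads in all 4 tumors, have no range and were not checked. Gm12013 was low in tumor 36 among the F. nucleatum tumors, with a gap of 0.851 of the range. Krt16 had 17 reads in tumor 19 and 0 in the other anti-PD-1 tumors, a gap of 1 times the range, which any single value above 3 values of 0 gives. Slc7a11 had no such tumor in either group. The measure can miss a tumor that stands apart. Krt14 was not flagged in the F. nucleatum tumors, although tumor 37 held 99.97% of its counts.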

How the results depend on the processing

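Slc7a11 was lower with F. nucleatum under all 14 other settings. With 1 tumor left out the log2 difference was -1.25 to -0.84, and without tumors 36 and 37 it was -0.66. On log2(FPKM + 1) it was -0.57, on log2(FPKM + 0.1) -0.99, with group medians -0.96 and with quantile normalization -0.61. With each tumor centred on the median of the table's genes it was -0.24 and the groups overlapped, as given above.

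The share of within-group pairs ordered opposite to Slc7a11 was 25% for Cxcl9, 41.7% with median centring, 14.3% without tumors 36 and 37, and 11.1% to 33.3% with 1 tumor left out (11.1% without tumor 36, 39 or 40). For Cd8a it was 66.7%, 42.9% without tumors 36 and 37, and 55.6% to 88.9% with 1 tumor left out. For Gbp2 it was 58.3%, 50% with median centring, 42.9% without tumors 36 and 37, which turns the majority of pairs to the same order, and 44.4% to 66.7% with 1 tumor left out. Of the 5 nearest genes, 3 stayed among the nearest with centring within groups or with no filter, 1 on log2(FPKM + 1), and 1 to 4 with 1 tumor left out. Il7r was among them in the first 3 of these settings. With no filter Il1a, at a mean normalized count of 28.4, came before Il7r. No paired analysis was possible because the labels give no numbers that pair tumors across the groups. With 4 tumors a group and unknown library totals, differences as small as that between tumors 11 and 40 could not be resolved.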

Other observations

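In the annotation of the authors' deposited table, Slc7a11 shared the term response to oxidative stress with 6 other genes, and of the 7 genes 4 were lower with F. nucleatum and 3 higher. The lower ones were Slc7a11, Lcn2, an iron-sequestering protein of neutrophils and epithelia, Il18bp, which binds interleukin-18, and Cyp2e1, a cytochrome P450. The higher ones were Duox2, which makes hydrogen peroxide, the muscle oxygen store Mb and the muscle gene Ankrd2. Lcn2 and Il18bp had log2 differences of -1.64 and -1.14, and the FDR of Il18bp there was 0.678. Cyp2e1, Duox2, Mb and Ankrd2 had mean levels of 0.0818, 0.00891, 0.173 and 0.249 FPKM, against 1.28 FPKM for Slc7a11. These genes and the solute carriers below were named after their values were seen.

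Solute carriers other than Slc7a11 were few and low. The table held 6, of which 4 were lower and 2 higher with F. nucleatum. The lower ones beside Slc7a11 were the vesicle transporter Slc32a1 (mean 0.0512 FPKM), the vitamin C transporter Slc23a1 (0.0817 FPKM) and the peptide transporter Slc15a2 (0.0574 FPKM). The higher ones were Slc4a1, the anion exchanger of red blood cells (0.174 FPKM), and Slc35f2 (0.0184 FPKM). Slc7a11, at 1.28 FPKM, had the highest mean level of the 6, and it was the only gene of the table with the KEGG term ferroptosis.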
